A study of Homo sapiens with 6 samples.

Results

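In SKNMC cells, IFI44L, an interferon-stimulated gene, rose with NFIB WT and fell with NFIB ΔIDR, while CXCL10, a chemokine of the same response, rose with NFIB ΔIDR. These genes belong to a list of 53 interferon-stimulated and major histocompatibility complex (MHC) class I genes, given by symbol. The list was chosen with earlier results of these data known. Of the 53, 44 were in the count table of 22604 genes, and 35 passed the filter on low counts that left 13501 genes for testing. Between the constructs, 3 members were higher with NFIB WT, namely IFI44L, its neighbour IFI44 and B2M, the light chain of MHC class I, against 5.52% of all genes tested. A further 8 were higher with NFIB ΔIDR, against 5.19% of all genes tested, namely CXCL10, CXCL11, GBP1, GBP2, SAMD9, SAMD9L, PARP9 and IFI16. These calls are from edgeR, and DESeq2 called 3 of the 8 (CXCL10, GBP2 and IFI16). Of the 35 tested, 24 passed in no contrast, and most members were at low levels in these cells.

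Interferons are secreted proteins that warn cells of infection. Type I interferons signal through their receptor, the kinases JAK1 and TYK2 and a complex with STAT2 and IRF9, which binds the interferon-stimulated response element (ISRE) in promoters. Interferon gamma signals through JAK1 and JAK2 to genes with a gamma-activated site (GAS). The genes switched on encode sensors of foreign nucleic acids, antiviral effectors, chemokines that draw T cells, and the machinery that loads peptides on MHC class I.

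SKNMC is an established Ewing sarcoma cell line, driven by the EWS-FLI1 fusion. The 3 groups compared, each of 2 libraries, were cells with an empty vector (EV), cells with V5-tagged full-length NFIB (NFIB WT) and cells with V5-tagged NFIB without its intrinsically disordered region (NFIB ΔIDR). The methods of the study describe lentiviral delivery and puromycin selection, and the NFIB sequence was cloned from a small cell lung cancer line. All 3 groups kept their own NFIB gene, grew in RPMI-1640 with serum and were labelled as untreated otherwise. NFIB, a factor of the nuclear factor I family, binds DNA as a dimer. The comparison asks which transcripts change when NFIB, with or without its disordered region, is added.

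The libraries held 6664231 to 8465572 counts, so 1 CPM (a count scaled by library size with the TMM method) stood for 6.68 to 8.38 counts. The 44 members in the table took 0.101% to 0.122% of the counts of a library. NFIB RNA was at 175 and 144 CPM for EV, 967 and 1049 CPM for NFIB WT, and 2222 and 2327 CPM for NFIB ΔIDR. Its mean was 159.8 ± 21.9 CPM (SD, n = 2), 1008 ± 58.1 CPM and 2274 ± 74.2 CPM, so both constructs raised it without overlap and NFIB ΔIDR cells held more of it than NFIB WT cells (NFIB WT against NFIB ΔIDR, log2 change -1.17, SE 0.10, adjusted p = 0.000191, edgeR). In the comparison between constructs, the deletion and the amount of NFIB RNA therefore cannot be told apart. The 10 Ewing sarcoma markers in the table were all expressed, summing to 2749 and 2763 CPM in EV cells, 3015 to 3027 CPM in NFIB WT cells and 2586 to 2635 CPM in NFIB ΔIDR cells. Of 11 leukocyte markers in the table, PTPRC had 1829 to 2151 counts and CD68 24 to 31, and the other markers had at most 10 counts in any library. The leukocyte markers summed to 263.5 and 263.0 CPM in EV cells, 280.0 and 256.3 CPM in NFIB WT cells and 289.6 and 319.7 CPM in NFIB ΔIDR cells. PTPRC and CD68 both stood above EV in both NFIB ΔIDR libraries without passing the adjusted threshold, PTPRC with a log2 fold change of 0.21 and an unadjusted p of 0.0375 (edgeR). The 10 fibroblast markers summed to 434 and 449.7 CPM in EV cells, 578 and 591 CPM in NFIB WT cells and 399.8 and 408 CPM in NFIB ΔIDR cells. Of 9 tested, 2, DCN and FAP, were higher with NFIB WT than with EV, against 0.452% of all genes tested. Between the constructs, 5 of those 9 were higher with NFIB WT (COL1A2, COL3A1, DCN, LUM and FAP) and 2 were lower (COL1A1 and PDGFRA) in edgeR. Of the 10 Ewing sarcoma markers, 2 were higher (CCND1 and LIPI) and 1 was lower (STEAP1). Over all genes tested, 5.52% were higher and 5.19% lower in this contrast. The part of these marker shifts in the results on interferon genes was not tested. In bulk RNA, fewer cells making a transcript and less of it per cell cannot be told apart.

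Per kilobase of gene length, B2M stood far above the rest in EV cells at 370.3 CPM per kilobase. It was followed by IFITM3 at 68.4, IFI16 at 44.9, IFI44 at 39.1, IFITM1 at 34.2 and LGALS3BP at 26.8 CPM per kilobase. Classical markers of an active interferon response were scarce. MX1, MX2, OAS2, IRF7, IFI27, ISG20, HERC6, XAF1 and IFITM2 had 0 to 9 counts in every library and did not pass the filter. MX1, a dynamin-like antiviral GTPase, had 5 and 2 counts in EV cells, 0 and 4 counts in NFIB WT cells and 2 and 3 counts in NFIB ΔIDR cells. No direction was read from these 9 genes. The other 9 listed genes, OASL, TAP1, TAP2, PSMB8, PSMB9, HLA-B, HLA-C, HLA-E and HLA-F, were not analysed here. Among members, antigen presentation was therefore measured by B2M alone. Outside the members, 13 genes of MHC class I loading and regulation were in the table and 10 were tested. None of these 10 was called in any contrast (edgeR), where at most 5.52% of all genes were called in 1 direction.

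**Figure D1:**
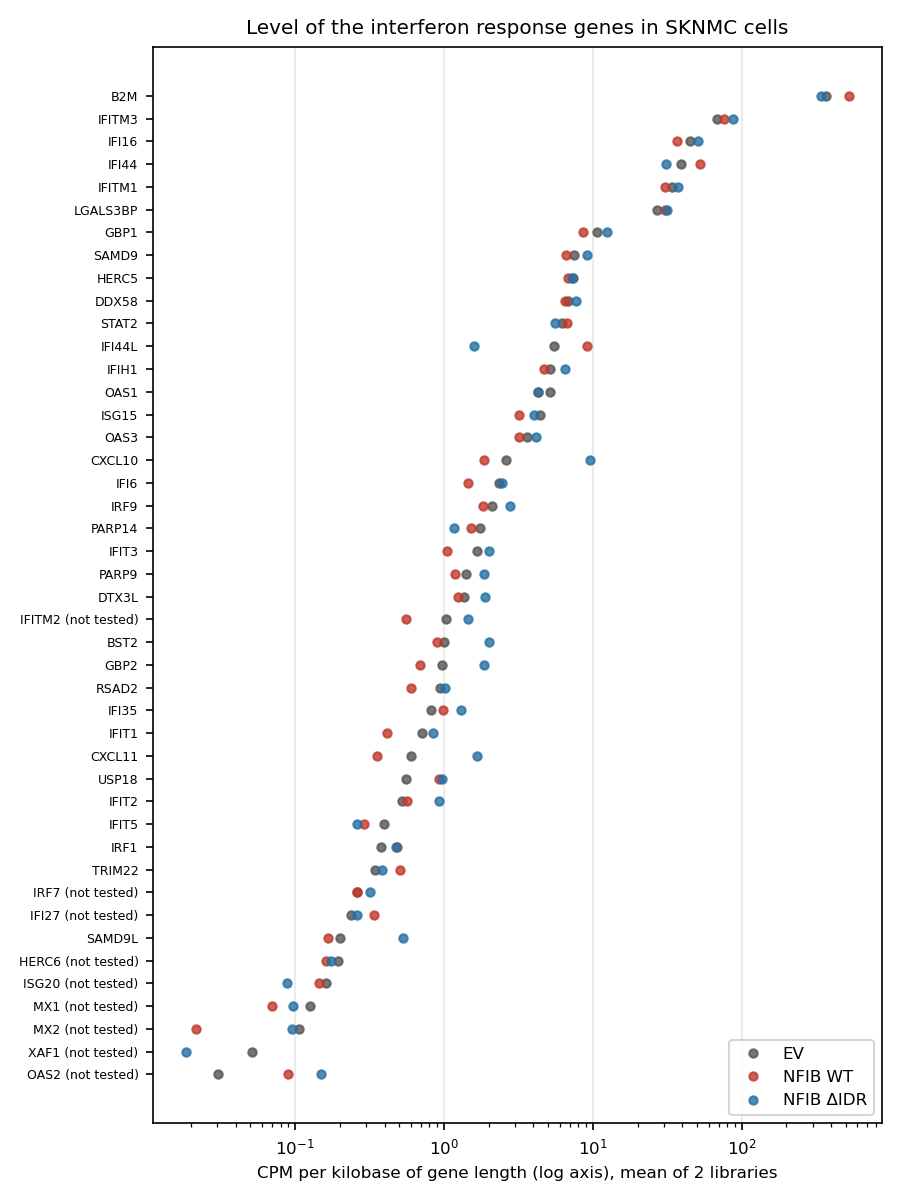
CPM per kilobase of gene length (x axis, log scale) of the 44 members in the count table (y axis, ordered by the level in EV cells). Each point is the mean of the 2 libraries of a group. B2M lies at 370.3 CPM per kilobase in EV cells, and the 9 genes marked as not tested lie among the lowest except IFITM2. Among tested members, IFI44L (lowest with NFIB ΔIDR) and CXCL10 (highest with NFIB ΔIDR) show the widest gaps between groups.

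IFI44L and IFI44 are related interferon-stimulated genes that lie in tandem on chromosome 1 of hg19, IFI44L from 79085587 to 79111830 and IFI44 from 79115481 to 79129763, with 3650 bases between them. Because both moved in the same direction between the constructs, the 250 bases before each start are shown. They are from RefSeq on GRCh38.p14, 5′ to 3′ on the plus strand, at chr1:78620198-78620447 and chr1:78649539-78649788. The RefSeq start of IFI44L lies inside the span given above, not at its outer end. Capitals mark an ISRE core (GAAA and GAAA with 2 bases of any kind between them, or TTTC and TTTC likewise on the other strand) and a short nuclear factor I (NFI) motif (TTGGCA, or TGCCAA on the other strand).
IFI44L: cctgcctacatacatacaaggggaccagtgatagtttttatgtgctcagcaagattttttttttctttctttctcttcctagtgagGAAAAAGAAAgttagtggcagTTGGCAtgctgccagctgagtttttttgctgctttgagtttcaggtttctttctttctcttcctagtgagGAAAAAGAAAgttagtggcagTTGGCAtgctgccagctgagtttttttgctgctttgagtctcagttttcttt
IFI44: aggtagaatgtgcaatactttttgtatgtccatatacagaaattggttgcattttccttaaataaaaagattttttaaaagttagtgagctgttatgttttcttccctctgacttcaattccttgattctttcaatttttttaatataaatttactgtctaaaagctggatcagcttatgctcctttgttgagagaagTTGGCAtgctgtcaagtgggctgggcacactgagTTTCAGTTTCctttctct

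Each ISRE core in the IFI44L stretch is followed by the NFI motif, with cores starting at -164 and -73 and NFI motifs at -143 and -52, counted in bases from the transcription start. The stretch holds an exact repeat of 85 bases, shifted by 91 bases, which carries this arrangement in both copies. IFI44 has an NFI motif at -52 and an ISRE core at -18. A longer NFI motif, TTGGC and GCCAA with 5 bases between them and at most 1 mismatch among the 10 fixed letters, was searched for after these promoters had been seen. It matched both places in IFI44L (TTGGCatgctGCCAg) and the place in IFI44 (TTGGCatgctGtCAA), here with the fixed letters that match in capitals.

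Over all members, 43 of 53 had a promoter window (250 bases before to 50 after the start) among the 27305 RefSeq entries, with DDX58 entered as RIGI. An ISRE core was in 26 of the 43 (60.5%), against 3.65% of all windows. A GAS match, TTCNNNGAA, was in 9 (20.9%), against 7.88% of all windows, and it overlapped an ISRE core in 3 of the members' windows. The short NFI motif was in 6 (14.0%), against 12.7% of all windows, namely STAT2, HERC5, PARP9, CXCL11, IFI44L and IFI44. Among the 31 tested members with a window, the ISRE core was in 20 (64.5%), against 2.84% of the windows of all genes tested, the GAS match in 8 (25.8%), against 6.7%, and the short NFI motif in 6 (19.4%), against 8.94%. The long NFI motif was in 4 (9.3%), namely HERC5, PARP14, IFI44L and IFI44, against 0.868% of all windows. All 4 also held an ISRE core, and 13 of the 27305 windows held both motifs. In the 3 windows other than that of PARP14, matches to the short and the long NFI motif overlap. The windows of IFI44L and IFI44 had been seen before the long motif was chosen. Its counts among members therefore include matches given in advance, and setting them against all windows is not a test. The HERC5 window holds the long motif with 0 mismatches, and its RNA was at 27.2 and 24.6 CPM in EV cells, 23.6 and 24.2 CPM in NFIB WT cells and 26.7 and 24.1 CPM in NFIB ΔIDR cells, with log2 fold changes against EV of -0.11 and -0.02. A match to these letters is not a measured binding site.

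**Figure D2:**
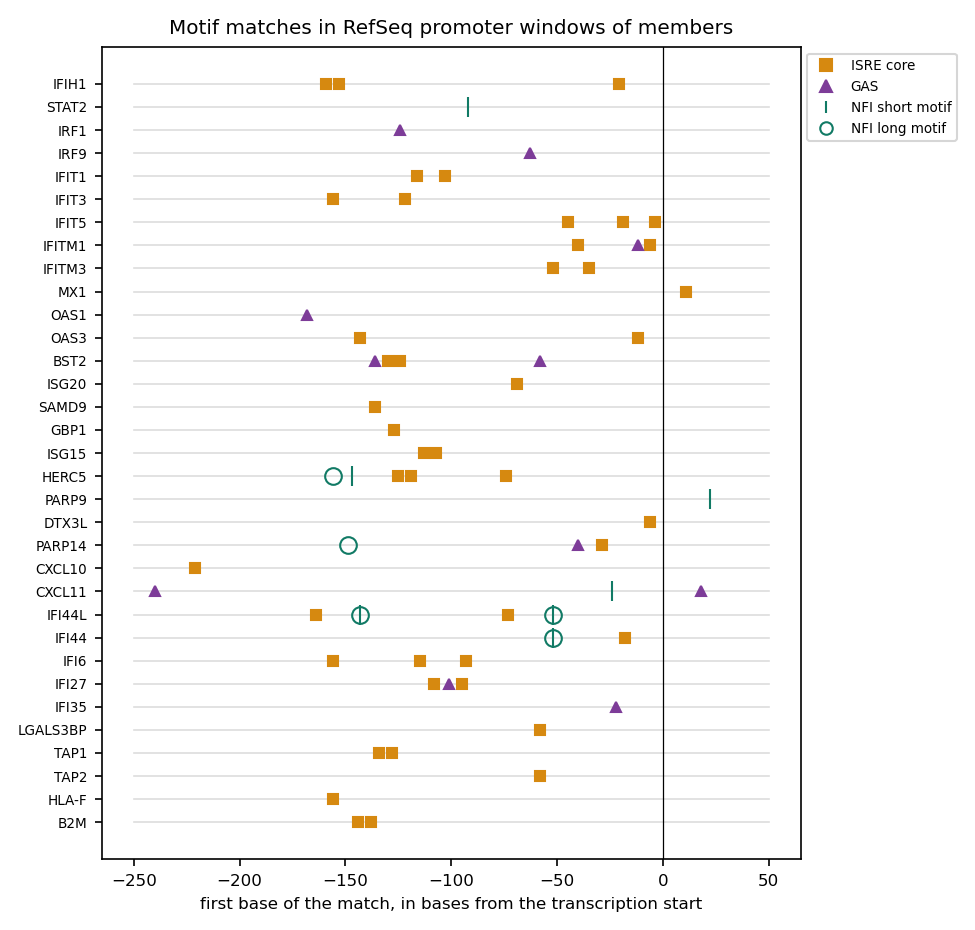
Motif matches in the promoter windows of the 33 members with at least 1 match, by the first base of the match in bases from the transcription start (x axis, 250 before to 50 after). Squares are ISRE cores, triangles GAS matches, ticks the short NFI motif and open circles the long NFI motif. IFI44L shows 2 pairs of an ISRE core and an NFI motif, and circles stand in 4 rows only, those of HERC5, PARP14, IFI44L and IFI44.

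IFI44L was at 29.8 and 35.4 CPM for EV, 54.9 and 52.3 CPM for NFIB WT, and 9.45 and 9.28 CPM for NFIB ΔIDR. The groups did not overlap, and the order was NFIB WT above EV above NFIB ΔIDR. It rose with NFIB WT (log2 change 0.71, SE 0.11, adjusted p = 0.0253, edgeR) and fell with NFIB ΔIDR (log2 change -1.80, SE 0.14, adjusted p = 0.000401, edgeR). The direct contrast of NFIB WT with NFIB ΔIDR also passed (log2 change 2.51, SE 0.14, adjusted p = 1.29e-05, edgeR). The call for NFIB WT against EV was lost in a fit of those groups alone and when any EV or NFIB ΔIDR library was left out, where its adjusted p reached 0.358 (edgeR). The other calls of IFI44L held in all 15 alternatives. Lack of overlap between 2 groups of 2 libraries was common over the 13501 genes tested. With NFIB WT against EV, 2925 genes lay apart higher and 2864 apart lower. With NFIB ΔIDR against EV these were 3523 and 3672, and with NFIB WT against NFIB ΔIDR 3733 and 3740. For this and the other members, lack of overlap is therefore given as description only.

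IFI44 was at 69.3 and 66.0 CPM for EV, 94.4 and 86.0 CPM for NFIB WT, and 53.3 and 53.7 CPM for NFIB ΔIDR. Its libraries stood in the same order as those of IFI44L, again without overlap, with smaller gaps. The contrast between constructs passed (log2 change 0.75, SE 0.10, adjusted p = 0.00171, edgeR), and those against EV did not (log2 fold change 0.41 with NFIB WT, adjusted p = 0.0868, and -0.34 with NFIB ΔIDR, adjusted p = 0.149). The other genes of the neighbourhood in the table, PTGFR and MGC27382, had at most 13 counts in any library.

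The remaining genes of this group did not pass in any contrast. LGALS3BP, a secreted glycoprotein that binds galectins, was at 56.1 and 65.2 CPM in EV cells, 65.1 and 72.5 CPM in NFIB WT cells and 71.1 and 71.6 CPM in NFIB ΔIDR cells. IFI6, a small antiviral membrane protein, was at 1.63 and 2.39 CPM in EV cells, 1.20 and 1.29 CPM in NFIB WT cells and 2.29 and 1.91 CPM in NFIB ΔIDR cells. IFI35, an interferon-induced partner of NMI, was at 1.23 and 0.835 CPM in EV cells, 1.20 and 1.29 CPM in NFIB WT cells and 1.35 and 1.91 CPM in NFIB ΔIDR cells, which in this range of counts leaves log2 fold changes with an SE above 0.4.

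B2M, which every MHC class I molecule needs to reach the cell surface, was at 364 and 367 CPM for EV, 582 and 454 CPM for NFIB WT, and 338 and 333 CPM for NFIB ΔIDR. Both NFIB WT libraries stood above all others, but they differed from each other more than any other pair of this gene. The contrast between constructs passed (log2 change 0.63, SE 0.11, adjusted p = 0.00631, edgeR). Against EV, the log2 fold change with NFIB WT was 0.50 (SE 0.11), with an adjusted p of 0.0747 in edgeR and 0.0232 in DESeq2, and with NFIB ΔIDR it was -0.12 (SE 0.11). B2M lies on chromosome 15, and the 250 bases before its start, at chr15:44711267-44711516 on the plus strand of GRCh38.p14 from RefSeq, hold a run of overlapping ISRE cores, in capitals, at -144 and -138.
B2M: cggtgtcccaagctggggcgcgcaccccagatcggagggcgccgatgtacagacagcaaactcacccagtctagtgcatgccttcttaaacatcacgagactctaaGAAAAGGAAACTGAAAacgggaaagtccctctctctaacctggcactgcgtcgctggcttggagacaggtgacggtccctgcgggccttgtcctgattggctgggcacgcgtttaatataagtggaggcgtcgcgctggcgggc

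CXCL10 and CXCL11 are chemokines that draw activated T cells through the receptor CXCR3. They lie next to each other on chromosome 4 of hg19, CXCL10 from 76942271 to 76944650 and CXCL11 from 76954835 to 76962568, inside the span of ART3 on the opposite strand, whose exons share no bases with theirs. CXCL10 was at 4.09 and 2.27 CPM for EV, 2.69 and 1.80 CPM for NFIB WT, and 11.2 and 12.1 CPM for NFIB ΔIDR, from 30 and 19 counts in EV cells, 18 and 14 counts in NFIB WT cells and 83 and 82 counts in NFIB ΔIDR cells. Both NFIB ΔIDR libraries lay far above the other 4, and the EV and NFIB WT libraries overlapped. CXCL10 rose with NFIB ΔIDR against EV (log2 change 1.89, SE 0.26, adjusted p = 0.0132, edgeR), and its log2 fold change with NFIB WT against EV was -0.49 (SE 0.36). In the direct contrast it was lower with NFIB WT (log2 change -2.38, SE 0.29, adjusted p = 0.00123, edgeR). The rise against EV lost its call when any EV or NFIB ΔIDR library was left out, where the adjusted p reached 0.274 (edgeR), whereas the direct contrast held in all 15 alternatives.

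CXCL11 followed the same order at much lower counts. It had 8 and 7 counts in EV cells, 5 and 3 counts in NFIB WT cells and 20 and 18 counts in NFIB ΔIDR cells, or 1.09 and 0.835 CPM in EV cells, 0.748 and 0.386 CPM in NFIB WT cells and 2.70 and 2.65 CPM in NFIB ΔIDR cells. The NFIB ΔIDR libraries lay above the others, and the direct contrast passed (log2 change -2.24, SE 0.45, adjusted p = 0.0126, edgeR), though not in DESeq2 (adjusted p = 0.104). Against EV the log2 fold changes were 1.47 (SE 0.39) with NFIB ΔIDR (adjusted p = 0.116) and -0.77 (SE 0.55) with NFIB WT. CXCL9, the third chemokine of this locus, had 0 to 2 counts. ART3 had 50 to 68 counts in every library. The 250 bases before the chemokines' starts, from RefSeq on the minus strand of GRCh38.p14 at chr4:76023498-76023747 and chr4:76036071-76036320, are shown because these genes moved most in the direction opposite to IFI44L. For CXCL11 the RefSeq start lies inside the span given above, not at its outer end. In capitals, CXCL10 has an ISRE core at -221, and CXCL11 has a GAS match at -240 and a short NFI motif at -24. A second GAS match of CXCL11, at 18, lies past the start and is not printed.
CXCL10: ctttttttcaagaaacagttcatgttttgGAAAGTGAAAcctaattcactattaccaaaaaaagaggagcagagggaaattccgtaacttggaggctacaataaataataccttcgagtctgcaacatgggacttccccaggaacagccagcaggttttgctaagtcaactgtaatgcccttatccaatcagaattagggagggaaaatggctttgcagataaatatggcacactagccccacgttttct
CXCL11: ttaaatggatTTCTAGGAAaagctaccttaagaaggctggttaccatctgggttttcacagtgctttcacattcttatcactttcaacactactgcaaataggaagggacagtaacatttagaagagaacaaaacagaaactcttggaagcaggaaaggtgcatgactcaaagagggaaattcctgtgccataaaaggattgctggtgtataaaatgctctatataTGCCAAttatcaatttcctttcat

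**Figure D3:**
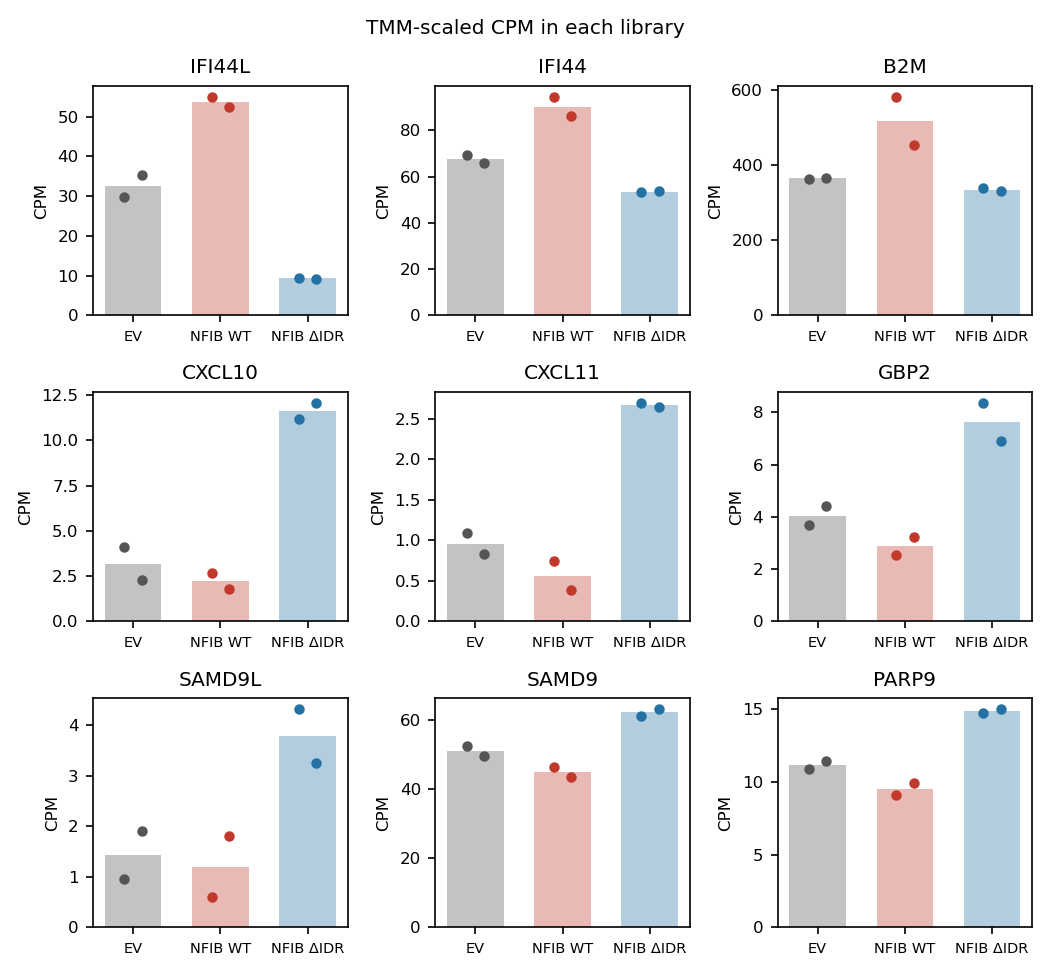
TMM-scaled CPM (y axis, from 0, a scale per panel) of 9 members by group (x axis). Points are the 2 libraries of a group and bars their mean. In the panels of IFI44L, IFI44 and B2M the NFIB WT libraries are highest, and in the other 6 panels the NFIB ΔIDR libraries are highest.

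Among cytosolic sensors, IFI16, a DNA sensor, was at 128 and 133 CPM for EV, 93.8 and 118 CPM for NFIB WT, and 146 and 149 CPM for NFIB ΔIDR. Libraries of different groups did not overlap, with NFIB ΔIDR highest, and the direct contrast passed (log2 change -0.48, SE 0.11, adjusted p = 0.0228, edgeR). The RNA sensors DDX58 (RIG-I) and IFIH1 (MDA5) did not pass in any contrast. DDX58 was at 32.6 and 32.6 CPM in EV cells, 31.0 and 30.8 CPM in NFIB WT cells and 37.4 and 36.2 CPM in NFIB ΔIDR cells. IFIH1 was at 17.2 and 20.2 CPM in EV cells, 14.2 and 19.7 CPM in NFIB WT cells and 24.2 and 22.8 CPM in NFIB ΔIDR cells, with a log2 fold change between constructs of -0.46 (SE 0.16) and an adjusted p of 0.0991 (edgeR).

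No transcription factor of the list passed in any contrast in edgeR or DESeq2, and at an unadjusted p under 0.05 only STAT2 did, between the constructs. With NFIB ΔIDR against EV, DESeq2 gave an adjusted p for 1 of the 3 tested. STAT2, part of the complex that binds the ISRE, was at 29.0 and 27.3 CPM in EV cells, 29.6 and 31.2 CPM in NFIB WT cells and 25.6 and 25.03 CPM in NFIB ΔIDR cells. Its DNA-binding partner IRF9 was at 4.77 and 2.27 CPM in EV cells, 2.54 and 3.60 CPM in NFIB WT cells and 4.99 and 4.27 CPM in NFIB ΔIDR cells, and IRF1, which responds early to interferon gamma, was at 1.63 and 1.07 CPM in EV cells, 1.497 and 1.93 CPM in NFIB WT cells and 1.75 and 1.62 CPM in NFIB ΔIDR cells. The libraries of IRF1 overlapped in all contrasts.

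Of 15 antiviral effectors tested, 4 were called lower by edgeR with NFIB WT than with NFIB ΔIDR, against 5.19% of all genes, and of these DESeq2 called GBP2. None passed against EV in edgeR or DESeq2. Against EV, DESeq2 gave an adjusted p for 12 of the 15 with NFIB WT and for 6 with NFIB ΔIDR. At an unadjusted p under 0.05 (edgeR), 2 lay below EV with NFIB WT, against 6.42% of all genes, and 6 lay above EV with NFIB ΔIDR, against 7.77%. GBP1 and GBP2, interferon-induced GTPases that attack pathogen-containing vacuoles, lie 40771 bases apart. GBP2 was at 3.68 and 4.41 CPM for EV, 2.54 and 3.21 CPM for NFIB WT, and 8.37 and 6.92 CPM for NFIB ΔIDR. The NFIB ΔIDR libraries were highest and the NFIB WT libraries lowest, without overlap (NFIB WT against NFIB ΔIDR, log2 change -1.40, SE 0.25, adjusted p = 0.00720, edgeR). GBP1 was at 31.7 and 33.3 CPM in EV cells, 23.9 and 28.5 CPM in NFIB WT cells and 35.2 and 40.5 CPM in NFIB ΔIDR cells, in the same order (log2 change -0.52, SE 0.13, adjusted p = 0.0278, edgeR). GBP2 shares exonic bases with GBP7, which had 0 to 2 counts.

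SAMD9 and SAMD9L are related cytoplasmic proteins that restrict poxviruses, and their genes lie 12032 bases apart. SAMD9 was at 52.6 and 49.7 CPM for EV, 46.5 and 43.6 CPM for NFIB WT, and 61.3 and 63.3 CPM for NFIB ΔIDR, with the groups in the order NFIB ΔIDR, EV, NFIB WT and no overlap (log2 change -0.47, SE 0.10, adjusted p = 0.0165, edgeR). SAMD9L was at 0.953 and 1.91 CPM in EV cells, 0.599 and 1.80 CPM in NFIB WT cells and 4.32 and 3.24 CPM in NFIB ΔIDR cells, where the EV and NFIB WT libraries overlapped and the call lay close to the threshold (log2 change -1.60, SE 0.45, adjusted p = 0.0477, edgeR).

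The IFIT proteins bind viral RNA, and their 4 genes lie side by side on chromosome 10. None passed the adjusted threshold. IFIT1 was at 3.81 and 2.98 CPM in EV cells, 1.20 and 2.70 CPM in NFIB WT cells and 3.37 and 4.56 CPM in NFIB ΔIDR cells. IFIT3 was at 4.09 and 5.37 CPM in EV cells, 2.10 and 3.86 CPM in NFIB WT cells and 5.67 and 5.74 CPM in NFIB ΔIDR cells. In both genes the NFIB WT libraries lay below all others, the first well below the second. IFIT2 was at 1.63 and 2.03 CPM in EV cells, 2.39 and 1.54 CPM in NFIB WT cells and 2.97 and 3.53 CPM in NFIB ΔIDR cells, highest in the NFIB ΔIDR libraries, with an adjusted p of 0.281 against EV (edgeR). IFIT2 and IFIT3 share 65 and 94 exonic bases with LIPA on the opposite strand, which had 159 to 189 counts.

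RSAD2 (viperin), which makes a nucleotide that ends viral RNA chains, was at 3.13 and 3.46 CPM in EV cells, 2.39 and 1.80 CPM in NFIB WT cells and 3.78 and 3.39 CPM in NFIB ΔIDR cells. Its NFIB WT libraries were lowest, with adjusted p of 0.374 against EV and 0.123 against NFIB ΔIDR (edgeR). RSAD2 shares 351 exonic bases with CMPK2 on the opposite strand, which had 68 to 108 counts. Without strand in the counting, reads there cannot be told apart. BST2 (tetherin), which holds budding virions at the cell surface, was at 0.953 and 1.07 CPM in EV cells, 1.05 and 0.771 CPM in NFIB WT cells and 2.16 and 1.91 CPM in NFIB ΔIDR cells. Its NFIB ΔIDR libraries were highest, with an adjusted p of 0.266 against EV and 0.0973 in the direct contrast (edgeR).

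The effectors with the highest CPM outside these groups did not pass in any contrast. IFITM3, a membrane protein that blocks virus entry, was at 44.3 and 47.1 CPM in EV cells, 49.5 and 51.7 CPM in NFIB WT cells and 56.8 and 60.7 CPM in NFIB ΔIDR cells, with a log2 fold change of 0.36 (SE 0.10) and an adjusted p of 0.127 for NFIB ΔIDR against EV (edgeR). IFITM1 was at 21.9 and 27.1 CPM in EV cells, 19.8 and 24.2 CPM in NFIB WT cells and 26.7 and 26.9 CPM in NFIB ΔIDR cells. OAS3, an oligoadenylate synthetase that activates RNase L, was at 22.3 and 26.0 CPM in EV cells, 20.7 and 21.9 CPM in NFIB WT cells and 27.1 and 27.8 CPM in NFIB ΔIDR cells. The other effectors tested, IFIT5, OAS1 and TRIM22, had log2 fold changes between -0.58 and 0.55 over the 3 contrasts.

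PARP9 and its partner DTX3L form a complex of an ADP-ribosyltransferase and a ubiquitin ligase, and their genes overlap head to head on opposite strands of chromosome 3. PARP9 was at 10.9 and 11.4 CPM for EV, 9.13 and 9.90 CPM for NFIB WT, and 14.7 and 15.02 CPM for NFIB ΔIDR. NFIB ΔIDR libraries were highest and NFIB WT libraries lowest, and the direct contrast passed (log2 change -0.64, SE 0.15, adjusted p = 0.0243, edgeR). DTX3L was at 7.90 and 7.75 CPM in EV cells, 6.44 and 7.84 CPM in NFIB WT cells and 9.85 and 11.8 CPM in NFIB ΔIDR cells and did not pass in the direct contrast (log2 change -0.59, SE 0.19, adjusted p = 0.0724, edgeR). They share 139 exonic bases, so without strand in the counting, reads there cannot be told apart. PARP14, a related ADP-ribosyltransferase, showed another order at 14.0 and 12.8 CPM in EV cells, 11.2 and 12.1 CPM in NFIB WT cells and 11.1 and 7.07 CPM in NFIB ΔIDR cells, and its log2 fold change with NFIB ΔIDR against EV was -0.55 (SE 0.20), with an adjusted p of 0.230 (edgeR).

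No gene of the ISG15 system passed in edgeR or DESeq2, also at an unadjusted p under 0.05 in edgeR. For NFIB ΔIDR against EV, DESeq2 gave an adjusted p for 1 of the 3 tested. ISG15, a ubiquitin-like modifier, was at 2.04 and 3.82 CPM in EV cells, 1.05 and 3.21 CPM in NFIB WT cells and 2.16 and 3.24 CPM in NFIB ΔIDR cells, and the libraries within each group differed more than the group means. USP18, which removes ISG15 and dampens receptor signalling, was at 1.09 and 1.19 CPM in EV cells, 2.10 and 1.67 CPM in NFIB WT cells and 1.75 and 2.21 CPM in NFIB ΔIDR cells, with both constructs above EV and log2 fold changes of 0.70 (SE 0.39) and 0.78 (SE 0.39) that did not pass (adjusted p = 0.462 and 0.382, edgeR). HERC5, the main ligase for ISG15, is given above.

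Taking the members as counts, 1 of 35 was higher with NFIB WT than with EV at an adjusted p under 0.05 (edgeR's quasi-likelihood test), against 0.452% of all genes tested. None was lower, against 0.163% of all genes, and at an unadjusted p under 0.05 the lower members were 3, against 6.42% of all genes. DESeq2 called 2 higher and 0 lower, against 0.432% and 0.123% of all genes in that fit. The median log2 fold change of the members was -0.17, next to 0.004 over all genes, with 24 of 35 negative. Leaving out either NFIB WT library gave 3 higher (IFI44L, IFI44 and B2M), where 2.11% of all genes were higher without the first and 10.9% without the second. Without the second, 5 members were lower, against 11% of all genes in that fit. With NFIB ΔIDR against EV, 1 was higher (0.296% of all genes) and 1 lower (0.356% of all genes). The median was 0.23 next to 0.001 over all genes, and 26 of 35 were positive. Leaving out the first or the second NFIB WT library gave 7 or 8 higher, against 6.19% or 6.39% of all genes in those fits, and 3 lower in both cases, against 6.99% or 6.89%. Since both contrasts use the same EV libraries, their values are set side by side only.

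Between the constructs, 3 of 35 members were higher with NFIB WT, against 5.52% of all genes, and 8 were lower, against 5.19% of all genes. The first share, with so few genes, is near that of all genes. Because the members were chosen with earlier results of these data known, setting their shares against all genes is description and not a test. The median log2 fold change was -0.38 next to -0.0009 over all genes, and 26 of 35 were negative. DESeq2 called 3 higher (3.21% of all genes) and 3 lower (2.2%), the latter being CXCL10, GBP2 and IFI16. A fit of the constructs without EV called 4 lower, CXCL10, CXCL11, GBP2 and SAMD9, against 2.43% of all genes in that fit. Leaving out the first or the second EV library gave a median log2 fold change of the members of -0.375 in both cases. Leaving out the first or the second NFIB ΔIDR library gave -0.458 or -0.348. CXCL10 kept its call in all these fits. All other lower members lost theirs without either NFIB ΔIDR library, and several did so without either EV library. Calls over all genes also became fewer in these fits. Without the first NFIB WT library SAMD9L was lost. Without the second 14 were lower, against 15.6% of all genes in that fit, adding DTX3L, IFIH1, IFIT1, IFIT3, IFITM1 and OAS3. The higher calls of IFI44 and B2M were also lost without either NFIB ΔIDR library, and that of IFI44L was kept. Over the members, the log2 difference between the libraries of a pair had an SD of 0.377 for EV, 0.239 for NFIB ΔIDR and 0.460 for NFIB WT.

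By the rule the methods of the study state, a fold of at least 1.5 and p under 0.05 (taken here as unadjusted, and applied to the edgeR fit where the study names DESeq2), the members called with NFIB WT against EV were IFI44L higher and RSAD2 lower, against 2.13% and 1.75% of all genes. With NFIB ΔIDR against EV, 6 members were higher (BST2, CXCL10, CXCL11, GBP2, IFIT2 and SAMD9L), against 3.09% of all genes, and 1 was lower (IFI44L), against 1.68%. Between the constructs, 3 were higher with NFIB WT, against 4.3% of all genes, and 10 were lower, against 5.69%. The 10 include BST2, DTX3L, IFIT1, IFIT3 and RSAD2, which did not pass the adjusted threshold, and leave out GBP1, IFI16 and SAMD9, whose folds were smaller.

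**Figure D4:**
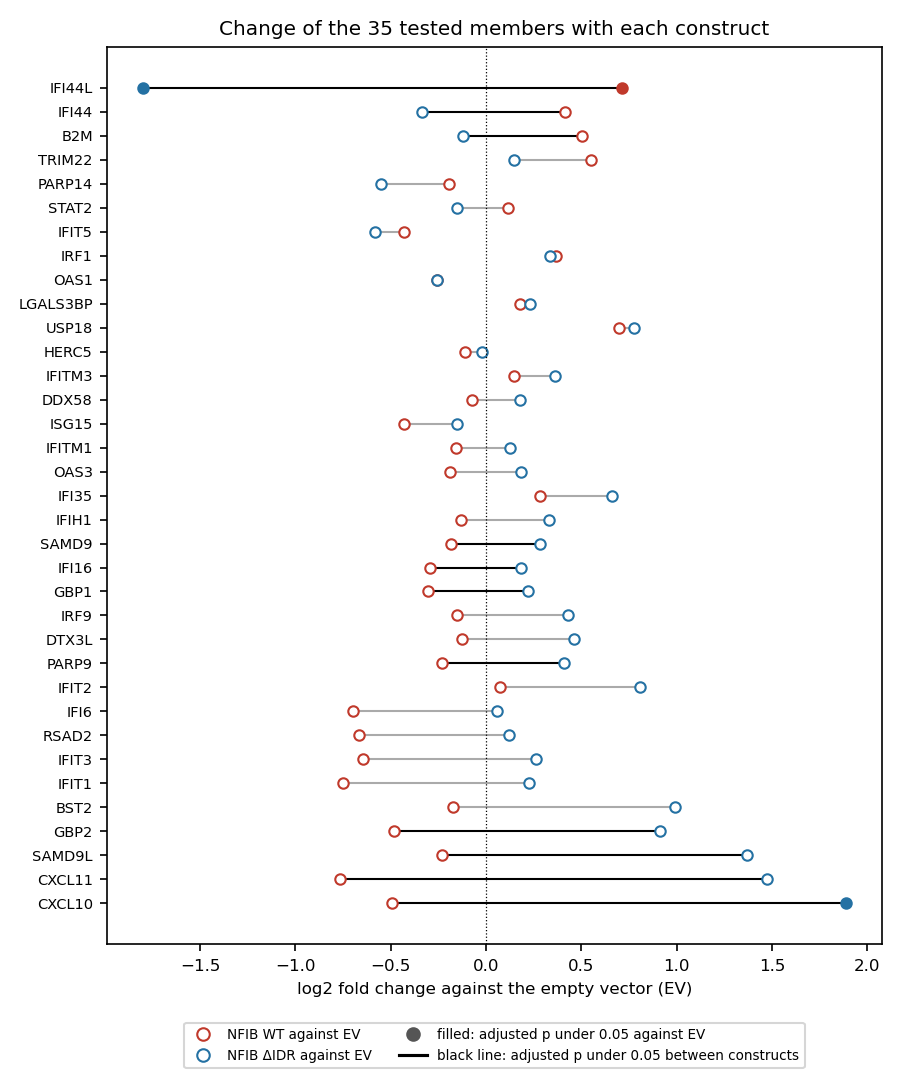
Log2 fold change against EV (x axis) of the 35 tested members (y axis, ordered by the contrast between constructs), in red for NFIB WT and blue for NFIB ΔIDR. Filled circles have an adjusted p under 0.05 against EV and black lines an adjusted p under 0.05 between constructs. IFI44L, at the top, spans 0.71 to -1.80, and CXCL10, at the bottom, spans -0.49 to 1.89.

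Of the listed genes of the response outside the members, 68 were tested. They include 30 other interferon-stimulated genes and 10 genes of MHC class I loading and regulation. No call was made against EV in edgeR. DESeq2 made none either, with an adjusted p for 65 of the 68 with NFIB WT and 53 with NFIB ΔIDR. Over all genes, edgeR called 0.452% higher and 0.163% lower with NFIB WT. With NFIB ΔIDR it called 0.296% higher and 0.356% lower, so at these shares few calls or none would be found among 68 genes. At an unadjusted p under 0.05 (edgeR), 4 of the 68 were higher and 5 lower with NFIB WT, against 6.93% and 6.42% of all genes. With NFIB ΔIDR, 10 of the 68 were higher and 2 lower, against 7.77% and 7.42%. Of the 10, 7 were among the other interferon-stimulated genes and 3 among genes of nucleic acid sensing. Of 13 ligands listed, 7 were in the table (6 interferons and IL6) with at most 7 counts in any library, and none could be tested. All 6 interferon receptor chains tested stayed uncalled, among them those of the interferon gamma receptor, IFNGR1 at 71.1 and 63.4 CPM in EV cells, 85.6 and 79.8 CPM in NFIB WT cells and 67.9 and 71.7 CPM in NFIB ΔIDR cells and IFNGR2 at 44.8 and 43.9 CPM in EV cells, 48.8 and 43.6 CPM in NFIB WT cells and 37.8 and 39.0 CPM in NFIB ΔIDR cells. Of 10 genes listed for MHC class II, the 3 in the table, CD74, HLA-DQA1 and the activator CIITA, had 0 to 3 counts.

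Between the constructs, 1 of the 68 was higher with NFIB WT, against 5.52% of all genes, and 8 were lower, against 5.19%, with adjusted p from 0.00319 (TRIM25) to 0.0464 (EPSTI1) in edgeR. DESeq2 called 0 higher and 2 lower, TRIM25 and IDO1. On the log2 scale, the receptor-associated kinase TYK2 was higher (0.44, SE 0.12) and the receptor-associated kinase JAK2 was lower (-0.46, SE 0.10). Of 9 genes of nucleic acid sensing, TRIM25, the ubiquitin ligase that activates RIG-I, was lower (-0.66, SE 0.10). The others that were lower are interferon-stimulated genes, namely EPSTI1 (-1.59, SE 0.45), GBP4 (-0.93, SE 0.19), CMPK2 (-0.63), NMI (-0.62), IDO1 (-0.55) and SLFN5 (-0.44). CMPK2 shares exonic bases with RSAD2, as given above, so their counts may not be separate. IDO1, which breaks down tryptophan, was at 47.8 and 46.0 CPM in EV cells, 32.2 and 34.2 CPM in NFIB WT cells and 45.9 and 51.4 CPM in NFIB ΔIDR cells, so that the NFIB WT libraries stood below both other groups. In this contrast the 68 genes had a median of -0.08 on the log2 scale. It was -0.28 for the other interferon-stimulated genes and 0.11 for the genes of MHC class I loading and regulation.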

How the data were processed

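RNA-seq of total RNA (CORALL kit) was done on SKNMC cells in 3 groups of 2 libraries, which the study calls biological duplicates. According to the submitters' processing notes, the authors used CASAVA 2.19, STAR 2.4.0h and featureCounts with hg19, and the deposited values are raw counts per gene without normalization. How strand and molecular identifiers entered the counts was not given in the sources used here, so reads of overlapping genes may not be told apart and molecules may be counted more than once.

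From these counts, low genes were removed by filterByExpr at a minimum count of 10 and a minimum total of 15. The 13501 genes left were scaled with TMM factors, and a single quasi-likelihood fit of the 6 libraries was tested in edgeR 4.0.16 (limma 3.58.1, R 4.3.3), with Benjamini-Hochberg adjustment over these genes. SE is the log2 fold change divided by the root of F. Totals of 6664231 to 8465572 counts and a common biological coefficient of variation of 0.0776 set the precision. With 2 libraries a group, p values rest on the spread of 3 pairs. DESeq2 1.42.0 on all 22604 genes, other scalings, filters, fits, a replicate block, a fold rule and leaving out each library were alternatives. On simulated data for NFIB WT against EV, edgeR recovered 52.2%, 71.6% and 97.0% of 1.5-, 2- and 4-fold changes with 6 false calls among 13275 genes. DESeq2 recovered 38.8%, 55.2% and 90.9% with 2 false calls. The simulation gave genes of a like level the same spread, in all groups. In the data, the log2 difference between the NFIB WT libraries had an SD of 0.376 over all genes, against 0.281 for EV and 0.279 for NFIB ΔIDR. Recovery and false calls may therefore be worse in the data.

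The members and gene lists were chosen with earlier results of these data known. Values per library are given for members that pass the adjusted p, or a fold of 1.5 with an unadjusted p under 0.05, in any contrast, and for up to 3 further members per role with the highest CPM. Other genes of the pathway are named where they pass in any contrast, or among the 3 of their list with the smallest p. Positions are from GENCODE v44 lifted to hg19, and promoters from RefSeq (GRCh38.p14). The sources can place a start differently. The GENCODE start minus the one deposited with the counts was 5218 bases for CXCL11 and -480 bases for IFI44L. Motifs were searched on both strands, and the long NFI motif and the repeat before IFI44L were looked for after the promoters had been seen. Figures were drawn with matplotlib in Python. Other assays of the study were not analysed here, and 1 gene of the pathway lists is not reported here.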

Additional observations from a re-analysis of the deposited data

Results flagged for a closer look

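The effects of the constructs against EV differed by the direct test for IFI44L and CXCL10. The log2 change of IFI44L with NFIB WT minus that with NFIB ΔIDR was 2.51 (adjusted p = 1.29e-05, edgeR), from 0.71 and -1.80, and in both directions the 2 libraries of a construct lay on 1 side of both EV libraries. Such a lack of overlap was common over all genes tested, as given above. For CXCL10 the difference was -2.38 (adjusted p = 0.00123, edgeR), from -0.49 with NFIB WT, which did not pass, and 1.89 with NFIB ΔIDR. Groups of 2 libraries are too small for a check of single libraries that stand apart.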

How the results depend on the processing

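The count of members higher with NFIB WT than with EV, 1 in the main test, was 2 in DESeq2 (B2M added), against 0.432% of all genes. It was 3 without a filter on low counts, against 1.24% of all genes, and 0 in a fit of those groups alone, against 0.0758%. This count also moved on leaving out 1 library. The count lower, 0, became 1 by the fold rule and 0 to 5 on leaving out 1 library, where the 5 (GBP1, IFI16, IFIT1, IFIT3 and ISG15) appeared without the second NFIB WT library. With NFIB ΔIDR against EV, 1 higher (0.296% of all genes) became 4 without a filter, against 1.22% of all genes in that fit. It became 8 in a fit of those groups alone, against 6.85%, and 6 by the fold rule, against 3.09%. The 1 lower (0.356% of all genes) became 3 (IFI44 and PARP14 added) in the fit of those groups alone, against 7.32%. Both counts also moved on leaving out 1 library. Between the constructs, 3 higher became 1 to 3 on leaving out 1 library, and 8 lower became 3 in DESeq2, 4 in a fit of the constructs alone and 1 to 14 on leaving out 1 library. The cause of these moves was not tested, and a left-out library leaves its group with 1, assumed to vary like the others. For the members named, 0 fold changes changed sign. On leaving out 1 library, 105 kept their side of the threshold, 9 newly passed and 36 no longer passed, and under the other alternatives these numbers were 199, 11 and 10. Scalings and robust estimation changed no count of members.

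Replicate numbers were not taken to pair the libraries, since deviations from the group means correlated by 0.0156 (EV and NFIB ΔIDR), 0.153 (EV and NFIB WT) and 0.0539 (NFIB ΔIDR and NFIB WT). With a replicate block, the members higher with NFIB WT than with EV were 3 (IFI44L, IFI44 and B2M), against 0.933% of all genes. Those lower with NFIB WT than with NFIB ΔIDR were 10 (DTX3L and IFIT3 added), against 7.76% of all genes. Depth limits the low members: CXCL11, SAMD9L, BST2 and the IFIT genes had few counts per library, and DESeq2 gave an adjusted p for 30, 19 and 35 of the 35 members in the 3 contrasts.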
